A study of Mus musculus with 18 samples.

Results

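The genes of the major histocompatibility complex (MHC) class II system and their activator Ciita were followed in mouse kidney. The set was taken by gene name and holds H2-Aa, H2-Ab1, H2-Eb1, H2-DMa, H2-DMb1, H2-DMb2, H2-Oa, H2-Ob, Cd74 and Ciita. This set and the gene lists below were chosen with earlier results of these data known. These are 10 of the 55385 genes in the tables, and all 10 passed the filter on low counts that left 17575 genes for testing. Kidneys of 18 mice aged 17.1 to 18.0 weeks, with no treatment given, were profiled by polyA RNA sequencing, with 3 males and 3 females in each of 3 groups. Dp16 mice, a model of trisomy 21, carry a duplication of the part of mouse chromosome 16 that corresponds to much of human chromosome 21, including a cluster of interferon receptor genes. In Dp16 2xIFNRs mice, which also have that duplication, the dosage of the interferon receptor genes is back to normal, and wild-type mice were C57BL/6J. The strain of both duplication groups is not given in the sources used here. Each library came from kidney tissue with all its cell types, so a lower or higher level of a transcript cannot be told apart from fewer or more cells of the type that makes it.

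MHC class II molecules are pairs of an alpha and a beta chain that carry peptides from engulfed material to the cell surface, where CD4 T cells read them. The invariant chain Cd74 guards the peptide groove until the molecule reaches the endosome, DM then exchanges the last invariant chain fragment for a peptide, and DO restrains DM. Ciita, the class II transactivator, does not bind DNA itself and is recruited by factors that sit on the X and Y boxes of these promoters. In the kidney, resident macrophages and dendritic cells are known for high class II expression, and interferon gamma is a known inducer of Ciita in many other cells.

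Library totals ranged from 42157790 to 57814587 counts. The 10 genes together took 1075 to 1517 CPM (counts as a share of the library size, scaled by TMM) in Dp16 kidneys, 1005 to 1290 CPM in Dp16 2xIFNRs kidneys and 678 to 1011 CPM in wild-type kidneys. The tissue label was met, with 9 kidney epithelium markers summing to 13685 to 15228 CPM in Dp16, 14612 to 16479 CPM in Dp16 2xIFNRs and 14440 to 16037 CPM in wild-type kidneys. The receptor gene Ifngr2, a chain of the interferon gamma receptor that lies inside the duplicated segment, had a median of 47.5 CPM in Dp16, 30.1 CPM in Dp16 2xIFNRs and 27.7 CPM in wild-type kidneys, which fits the labels. One wild-type library, replicate 5, stood apart in adrenal markers, which summed to 62.2 CPM there against 0.624 to 3.26 CPM in the other wild-type libraries. It was also the wild-type library with the most class II RNA, 1011 CPM, and without it the same 6 class II genes discussed below were called higher in Dp16. Among Dp16 libraries, replicate 1 stood apart in adrenal markers at a lower level, 7.40 CPM against 0.431 to 0.636 CPM in the others.

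Of the 10 genes, 8 lie together in the MHC on chromosome 17, within 224.3 kb of build GRCm38 (chr17:34092340-34316674). In order along the chromosome these are H2-Oa (chr17:34092340-34095234), H2-DMa (chr17:34119541-34139101), H2-DMb2 (chr17:34143307-34151555), H2-DMb1 (chr17:34153072-34160230), H2-Ob (chr17:34238903-34254414), H2-Ab1 (chr17:34257689-34269419), H2-Aa (chr17:34282744-34287823) and H2-Eb1 (chr17:34305867-34316674). H2-Aa is on the minus strand and the other 7 are on the plus strand. Cd74 lies elsewhere. Ciita is on chromosome 16 (chr16:10480059-10528418, plus strand), but 65.0 Mb before the duplicated segment (chr16:75540514-97962622), so none of the 10 genes is part of the duplication.

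Class II promoters are known for the X and Y boxes that Ciita's partners bind, and 5 of them are shown so that classical, DM and DO genes can be compared. The windows of H2-DMa and H2-Oa are not shown. RefSeq promoter windows (GRCm38.p6, from 250 bases before to 50 bases after a start) were found for 7 of the 10 genes. H2-Ab1, Cd74 and Ciita had no window in that table. Both strands were searched for the X1 box, a motif of 14 bases, with up to 2 mismatches, for its core ACNGATG, which is the end of that box, and for the Y box GATTGG. Capitals mark every match, and the exact X1 box is the first capital run of H2-DMb1. The windows are H2-DMb1 (chr17:34152941-34153240, plus strand), H2-DMb2 (chr17:34144999-34145298, plus strand), H2-Eb1 (chr17:34305617-34305916, plus strand), H2-Ob (chr17:34238655-34238954, plus strand) and H2-Aa (chr17:34287774-34288073, minus strand), written 5′ to 3′:
H2-DMb1: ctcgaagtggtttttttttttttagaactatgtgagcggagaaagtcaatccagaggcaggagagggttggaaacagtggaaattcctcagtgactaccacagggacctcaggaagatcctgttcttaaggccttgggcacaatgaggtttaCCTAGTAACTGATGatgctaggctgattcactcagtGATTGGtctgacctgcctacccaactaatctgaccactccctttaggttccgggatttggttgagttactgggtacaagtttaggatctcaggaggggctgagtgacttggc
H2-DMb2: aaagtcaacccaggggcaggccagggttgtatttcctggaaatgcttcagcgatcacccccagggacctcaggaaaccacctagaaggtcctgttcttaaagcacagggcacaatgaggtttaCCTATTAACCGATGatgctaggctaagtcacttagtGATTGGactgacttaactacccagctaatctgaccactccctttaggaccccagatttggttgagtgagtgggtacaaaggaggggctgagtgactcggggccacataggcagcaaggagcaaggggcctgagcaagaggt
H2-Eb1: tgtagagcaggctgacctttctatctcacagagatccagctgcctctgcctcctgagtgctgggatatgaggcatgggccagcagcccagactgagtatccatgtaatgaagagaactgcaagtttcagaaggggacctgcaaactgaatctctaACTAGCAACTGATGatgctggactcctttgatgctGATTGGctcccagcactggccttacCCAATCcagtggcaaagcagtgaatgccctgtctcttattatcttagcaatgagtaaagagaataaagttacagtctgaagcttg
H2-Ob: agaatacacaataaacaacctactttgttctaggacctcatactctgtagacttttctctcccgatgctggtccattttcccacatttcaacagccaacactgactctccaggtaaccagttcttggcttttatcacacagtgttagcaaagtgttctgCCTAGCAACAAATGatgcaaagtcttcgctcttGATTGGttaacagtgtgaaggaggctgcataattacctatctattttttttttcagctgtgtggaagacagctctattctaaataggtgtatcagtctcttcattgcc
H2-Aa: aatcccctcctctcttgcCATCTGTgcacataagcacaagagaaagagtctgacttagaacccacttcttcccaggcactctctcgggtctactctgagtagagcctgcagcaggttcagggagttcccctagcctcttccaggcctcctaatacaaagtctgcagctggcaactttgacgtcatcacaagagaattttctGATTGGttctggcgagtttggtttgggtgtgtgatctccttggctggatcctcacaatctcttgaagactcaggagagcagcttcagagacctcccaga

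Matches are counted per gene here, while the shares beside them are of windows. The Y box was found in all 7 genes with a window, in 7 of their 8 windows, against 16.109% of all 32851 promoter windows. H2-DMa had a window without it, and in its other window the Y box began at base -199 from the start. The X1 core was found in 5 of the 7, against 9.851% of windows, and both together in 5 of the 7, against 1.516%. An exact X1 box was found in H2-DMb1 alone among the 7, against 0.061% of windows, and a box with up to 2 mismatches in 5 of the 7, against 22.937%. In H2-DMb1, H2-DMb2, H2-Eb1 and H2-Ob an X1 box was followed on the same strand by a Y box with 22, 22, 21 and 19 bases between them. A spacing of 15 to 25 bases, chosen after these matches were seen, was present in 41 windows, 0.125% of all. In H2-Aa the only X1 core lies far upstream on the opposite strand, and its Y box is near the start. H2-DMa had no match to the X1 box or its core. The H2-Oa X1 box, with 2 mismatches, began at base -144 and its Y box at base -44. These matches describe letters in the windows and say nothing of binding in these kidneys.

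Compared per transcript length, as the deposited RPKM values allow, Cd74 was the most abundant of the 10 in every group. It averaged 405 ± 62.6 RPKM in Dp16, 390.0 ± 49.3 RPKM in Dp16 2xIFNRs and 264 ± 43.4 RPKM in wild-type kidneys (SD, n = 6 each). The classical chains came next, with H2-Ab1 at 174 ± 27.1 RPKM in Dp16, 164 ± 19.7 RPKM in Dp16 2xIFNRs and 123 ± 19.3 RPKM in wild-type kidneys. H2-Aa stood at 155 ± 27.2 RPKM in Dp16, 146 ± 19.5 RPKM in Dp16 2xIFNRs and 101 ± 19.1 RPKM in wild-type kidneys. The ranges of H2-Aa and H2-Ab1 overlapped in each group. H2-Eb1 averaged 117 ± 20.2 RPKM in Dp16, 110.3 ± 14.9 RPKM in Dp16 2xIFNRs and 74.9 ± 13.4 RPKM in wild-type kidneys, with a range that overlapped that of H2-Aa in each group. The DM chains were well below the classical chains and did not overlap with them in any group. H2-DMb1 averaged 17.8 ± 3.77 RPKM in Dp16, 18.2 ± 3.20 RPKM in Dp16 2xIFNRs and 13.6 ± 2.81 RPKM in wild-type kidneys. H2-DMa averaged 6.78 ± 1.16 RPKM in Dp16, 6.10 ± 1.02 RPKM in Dp16 2xIFNRs and 4.87 ± 0.859 RPKM in wild-type kidneys. The remaining genes were lower again. H2-DMb2 had 1.42 ± 0.760 RPKM in Dp16, 1.40 ± 0.492 RPKM in Dp16 2xIFNRs and 1.27 ± 0.206 RPKM in wild-type kidneys, and its range overlapped that of H2-Oa in each group. H2-Oa had 1.28 ± 0.209 RPKM in Dp16, 1.08 ± 0.183 RPKM in Dp16 2xIFNRs and 0.770 ± 0.232 RPKM in wild-type kidneys. The lowest in every group were Ciita and H2-Ob. Ciita had 0.637 ± 0.154 RPKM in Dp16, 0.829 ± 0.121 RPKM in Dp16 2xIFNRs and 0.630 ± 0.180 RPKM in wild-type kidneys, and H2-Ob had 0.480 ± 0.0981 RPKM in Dp16, 0.482 ± 0.103 RPKM in Dp16 2xIFNRs and 0.349 ± 0.107 RPKM in wild-type kidneys. Ranges of H2-Oa and Ciita overlapped in Dp16 2xIFNRs and in wild-type kidneys and not in Dp16 kidneys, and those of Ciita and H2-Ob overlapped in Dp16 and in wild-type kidneys and not in Dp16 2xIFNRs kidneys.

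**Figure D1:**
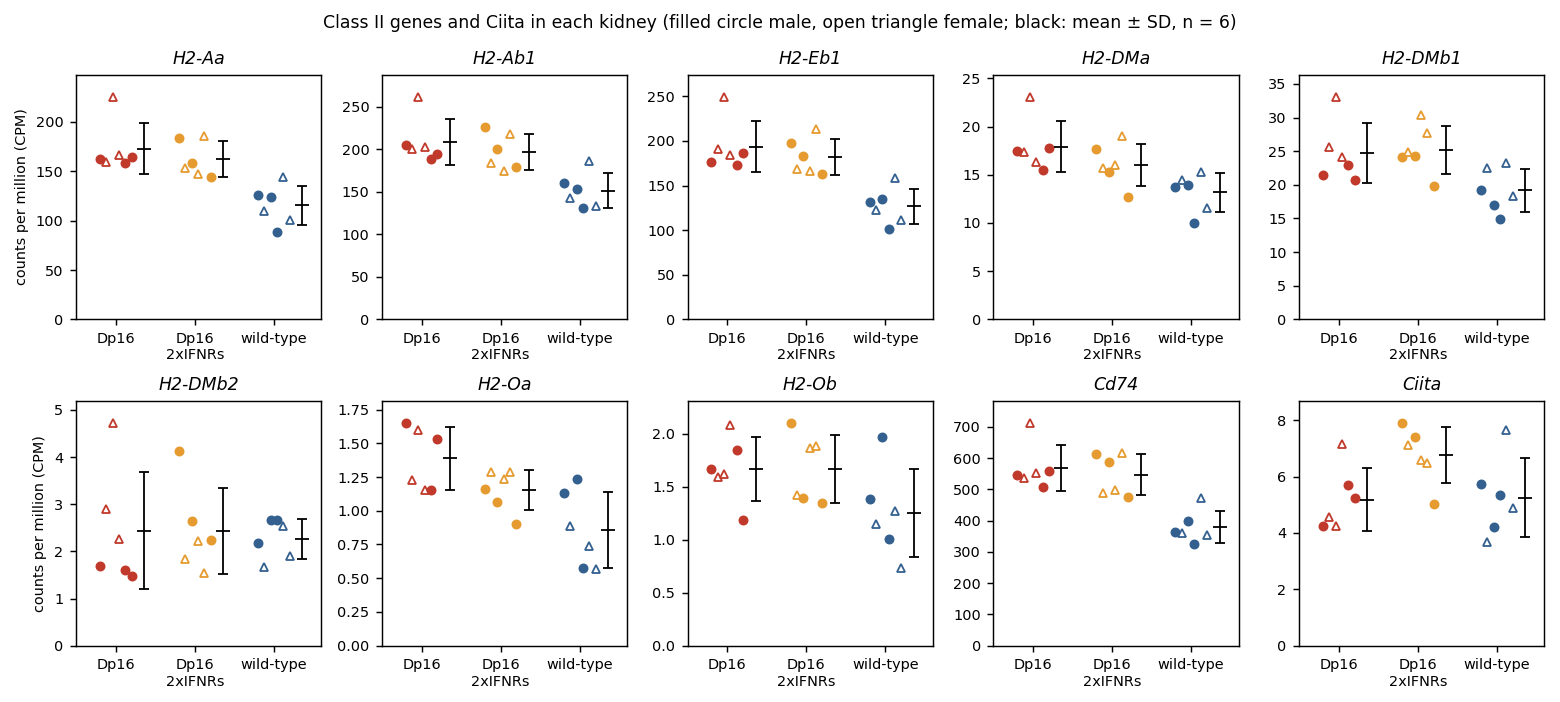
Level of each of the 10 genes in CPM (vertical axis, each panel with its own scale starting at 0) in every kidney, with Dp16, Dp16 2xIFNRs and wild-type from left to right, filled circles for males, open triangles for females and black marks for the group mean with SD (n = 6 each). H2-Aa, H2-Eb1 and Cd74 lie above every wild-type kidney in both duplication groups, while Ciita overlaps in all 3 groups.

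The first comparison asked how Dp16 kidneys differ from wild-type kidneys. The classical chains, the invariant chain and the DM chains H2-DMa and H2-DMb1 were higher in Dp16, by 1.28-fold to 1.53-fold, while Ciita did not pass the test. Of the 10 genes, 6 were called higher and 0 lower at an adjusted p of 0.05 in edgeR's quasi-likelihood test, against 3.17% of all tested genes called higher and 1.06% called lower in this comparison. The median log2 fold change of the 10 was 0.45, and that of all tested genes was -0.01. Because the 10 were chosen with earlier results of these data known, their contrast with all genes is a description. Without Dp16 replicate 3, a kidney with high class II levels, 4 of the 10 were called. In 5 of the 10 every Dp16 kidney exceeded every wild-type kidney, a pattern found in 1.06% of all tested genes.

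H2-Aa encodes the alpha chain of the I-A molecule. Its lowest, median and highest values were 158, 164 and 226 CPM in Dp16 kidneys, 144, 156 and 186 CPM in Dp16 2xIFNRs kidneys and 88.4, 117 and 144 CPM in wild-type kidneys. Every duplication kidney was above every wild-type kidney, although the lowest Dp16 2xIFNRs value (144.3 CPM) lay next to the highest wild-type value (144.1 CPM). The log2 fold change over wild-type was 0.58 ± 0.11 in Dp16 (SE, edgeR adjusted p = 0.00428) and 0.49 ± 0.11 in Dp16 2xIFNRs (adjusted p = 0.0116).

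H2-Ab1, the beta chain that pairs with H2-Aa, had 188, 201 and 262 CPM as its lowest, median and highest values in Dp16, 174, 192 and 225 CPM in Dp16 2xIFNRs and 130.4, 148 and 186 CPM in wild-type kidneys. The Dp16 kidneys did not overlap with wild-type, and the Dp16 2xIFNRs kidneys did, through wild-type replicate 5. The log2 fold change over wild-type was 0.46 ± 0.10 in Dp16 (edgeR adjusted p = 0.00753) and 0.38 ± 0.09 in Dp16 2xIFNRs (adjusted p = 0.0242). The adjusted p in Dp16 2xIFNRs was close to the threshold, and the call was lost without any 1 of wild-type replicates 2, 4 and 6 or Dp16 2xIFNRs replicates 1, 3 and 5, at log2 fold changes of 0.33 to 0.36 and adjusted p up to 0.0723 in edgeR.

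H2-Eb1 is the beta chain of the I-E molecule, whose alpha chain gene is inactive in the C57BL/6 strain and listed here as the pseudogene H2-Ea-ps, with 0 counts in all 18 libraries. The lowest, median and highest H2-Eb1 values were 173, 185 and 249 CPM in Dp16, 163, 176 and 214 CPM in Dp16 2xIFNRs and 101, 127 and 158 CPM in wild-type kidneys. Neither duplication group overlapped with wild-type. H2-Eb1 had the largest fold among the called members in Dp16, a log2 fold change of 0.61 ± 0.10 over wild-type (edgeR adjusted p = 0.00168), and 0.53 ± 0.10 in Dp16 2xIFNRs (adjusted p = 0.00493).

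Cd74, the invariant chain (chr18:60803848-60812652, plus strand), had 506, 548 and 712 CPM (lowest, median, highest) in Dp16, 477, 544 and 615 CPM in Dp16 2xIFNRs and 324, 361 and 472 CPM in wild-type kidneys. All 12 duplication kidneys were above all 6 wild-type kidneys. The log2 fold change over wild-type was 0.59 ± 0.10 in Dp16 (edgeR adjusted p = 0.00131) and 0.53 ± 0.10 in Dp16 2xIFNRs (adjusted p = 0.00268). The calls of H2-Aa, H2-Eb1 and Cd74 in both comparisons with wild-type, and of H2-Ab1 in Dp16, held under every alternative fit and with each library left out.

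**Figure D2:**
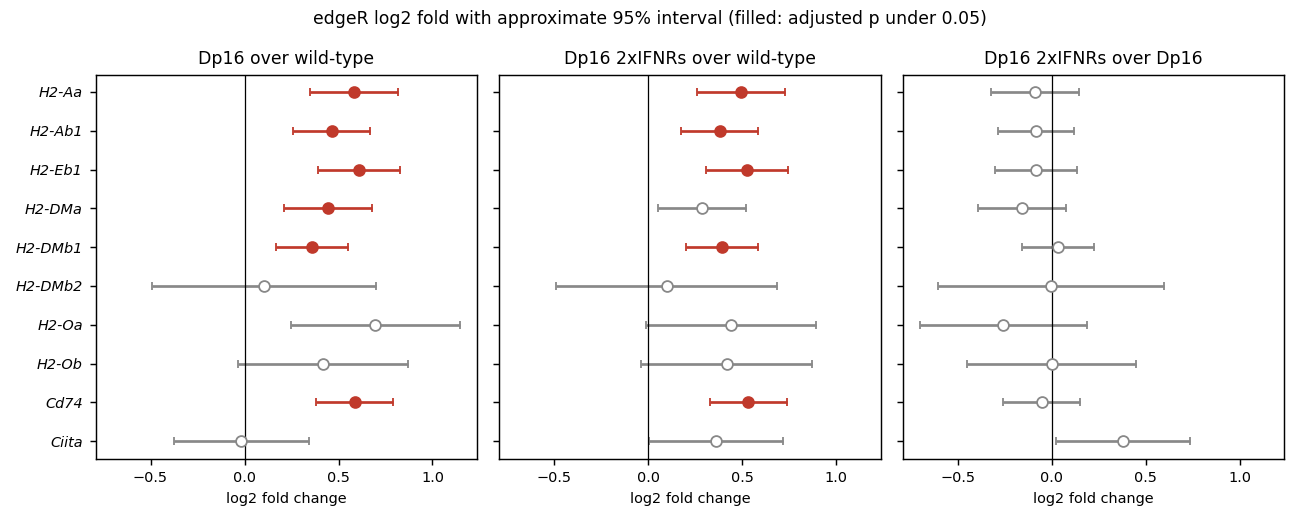
Log2 fold change of each gene (points) with its approximate 95% interval (lines) for Dp16 over wild-type, Dp16 2xIFNRs over wild-type and Dp16 2xIFNRs over Dp16, with filled points for adjusted p under 0.05 in edgeR's quasi-likelihood test. H2-Aa, H2-Ab1, H2-Eb1, H2-DMb1 and Cd74 are called in both comparisons with wild-type and H2-DMa in Dp16 over wild-type, and 0 of the 10 genes is called between the duplication groups.

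The DM genes encode the peptide exchange factor. H2-DMa, its alpha chain, had 15.5, 17.4 and 23.1 CPM (lowest, median, highest) in Dp16, 12.7, 15.9 and 19.0 CPM in Dp16 2xIFNRs and 9.97, 13.9 and 15.3 CPM in wild-type kidneys. The Dp16 kidneys were all above the wild-type kidneys by a narrow margin, and the Dp16 2xIFNRs kidneys overlapped with them. Its log2 fold change was 0.44 ± 0.11 in Dp16 (edgeR adjusted p = 0.0247) and 0.29 ± 0.11 in Dp16 2xIFNRs (adjusted p = 0.153, not called). H2-DMa exons share 360 bases with Brd2 on the opposite strand, and whether the counting used strand is not given in the sources used here.

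H2-DMb1, the main DM beta chain by level, had 20.8, 23.5 and 33.1 CPM in Dp16, 19.8, 24.5 and 30.4 CPM in Dp16 2xIFNRs and 14.98, 18.8 and 23.3 CPM in wild-type kidneys. The groups overlapped. It was called higher in both, at a log2 fold change of 0.36 ± 0.09 in Dp16 (edgeR adjusted p = 0.0252) and 0.39 ± 0.09 in Dp16 2xIFNRs (adjusted p = 0.0131). The Dp16 calls of both H2-DMa and H2-DMb1 were lost without Dp16 replicate 3, at log2 fold changes of 0.37 (edgeR adjusted p = 0.0876) and 0.29 (adjusted p = 0.0863). The H2-DMa call was also lost without any 1 of Dp16 replicates 1 and 6 or wild-type replicates 4 and 6, and the H2-DMb1 call without any 1 of Dp16 replicate 5 or wild-type replicates 3, 4 and 6.

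H2-DMb2 encodes a second DM beta chain, and its transcript is 96.0% identical to that of H2-DMb1 over 1045 aligned bases, with identical runs of up to 221 bases, so that the split of reads between the pair is uncertain. H2-DMb2 had 1.49, 1.97 and 4.72 CPM in Dp16, 1.54, 2.24 and 4.13 CPM in Dp16 2xIFNRs and 1.67, 2.35 and 2.67 CPM in wild-type kidneys. Its log2 fold changes of 0.10 ± 0.28 in Dp16 (edgeR adjusted p = 0.903) and 0.10 ± 0.27 in Dp16 2xIFNRs (adjusted p = 0.895) did not pass. With the counts of the pair summed, the Dp16 difference of H2-DMb1 plus H2-DMb2 was 0.33 on the log2 scale (edgeR adjusted p = 0.0518).

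The DO genes encode the inhibitor of DM, which is known mainly from B cells and some dendritic cells. H2-Oa, the alpha chain, had 1.16, 1.38 and 1.65 CPM (lowest, median, highest) in Dp16, 0.899, 1.20 and 1.29 CPM in Dp16 2xIFNRs and 0.571, 0.814 and 1.23 CPM in wild-type kidneys. It had the largest estimate of the 10 genes in Dp16, a log2 fold change of 0.70 ± 0.21, which missed the threshold (edgeR adjusted p = 0.0652). DESeq2 called it (adjusted p = 0.0305), as did limma on log2 RPKM (adjusted p = 0.0263) and edgeR without wild-type replicate 3 (adjusted p = 0.0395). H2-Oa shares 321 exon bases with the antisense gene BC051537. H2-Ob, the beta chain, had 1.18, 1.65 and 2.09 CPM in Dp16, 1.35, 1.65 and 2.103 CPM in Dp16 2xIFNRs and 0.736, 1.21 and 1.97 CPM in wild-type kidneys, with overlap in all 3. The log2 fold change of H2-Ob was 0.42 ± 0.21 in both Dp16 (edgeR adjusted p = 0.332) and Dp16 2xIFNRs (adjusted p = 0.306).

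Ciita, the transactivator that sets class II transcription in the known pathway, had 4.24, 4.90 and 7.15 CPM in Dp16, 5.03, 6.86 and 7.90 CPM in Dp16 2xIFNRs and 3.67, 5.11 and 7.67 CPM in wild-type kidneys. The 3 groups overlapped. The log2 fold change in Dp16 over wild-type was -0.02, with an approximate 95% interval of -0.38 to 0.34 (edgeR adjusted p = 0.976), so that a rise as large as that of Cd74 (0.59) lies outside the interval. In Dp16 2xIFNRs it was 0.36 ± 0.17 over wild-type, unadjusted p = 0.0422 and adjusted p = 0.253 in edgeR's test. These values and the interval rest on all 18 libraries, and wild-type replicate 5 had the highest wild-type Ciita value. Without that library the Ciita estimates were 0.13 in Dp16 (edgeR adjusted p = 0.763) and 0.51 in Dp16 2xIFNRs (adjusted p = 0.0666). Ciita shares 329 exon bases with Dexi on the opposite strand.

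The second comparison asked the same of Dp16 2xIFNRs kidneys. Of the 10 genes, 5 were called higher and 0 lower in edgeR's test, against 3.17% of all tested genes called higher and 1.61% called lower. These were H2-Aa, H2-Ab1, H2-Eb1, H2-DMb1 and Cd74, at 1.30-fold to 1.45-fold, and all 10 estimates were positive, with a median log2 fold change of 0.41 against 0.01 over all tested genes. In 3 of the 10 (H2-Aa, H2-Eb1 and Cd74) no Dp16 2xIFNRs kidney overlapped with wild-type, against 1.04% of all tested genes. Both comparisons share the wild-type kidneys.

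The third comparison set Dp16 2xIFNRs against Dp16 kidneys and so concerns the receptor dosage. In edgeR's test 0 of the 10 genes were called, against 0.0171% of all tested genes called in either direction, 3 genes in all. At an unadjusted p under 0.05 there was 1 of the 10, Ciita, against 825 of all 17575 tested genes, and DESeq2 also called 0 of the 10. The log2 fold change of Cd74 was -0.05 (95% interval -0.26 to 0.15), that of H2-Aa -0.09 (-0.32 to 0.15), that of H2-Ab1 -0.08 (-0.29 to 0.12) and that of H2-Eb1 -0.09 (-0.30 to 0.13). These intervals leave room for a small rise and for a larger fall in Dp16 2xIFNRs. The lower ends of H2-Aa, H2-Ab1 and H2-Eb1 compare with log2 fold changes of 0.58, 0.46 and 0.61 in Dp16 over wild-type. H2-DMa, called over wild-type in Dp16 alone, was at -0.16 (-0.39 to 0.08). Ifngr2 itself was lower in Dp16 2xIFNRs than in Dp16, by a log2 fold change of -0.63 ± 0.07 (edgeR adjusted p = 0.000187). Ciita had the highest estimate, 0.38 ± 0.17 (95% interval 0.02 to 0.74, unadjusted p = 0.0345, adjusted p = 0.850), with all 6 Dp16 2xIFNRs kidneys above the Dp16 median and 2 above every Dp16 kidney.

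Levels relative to each other are given as ratios of RPKM, as a description without a test. The ratios were added after values were seen. Further ratios between members were computed and are not shown, and no share of ratios without overlap was taken. The ratio of Cd74 to Ciita had a lowest, median and highest value of 448, 652 and 973 in Dp16, 398, 456 and 552 in Dp16 2xIFNRs and 352, 395 and 569 in wild-type kidneys. The highest ratios were thus among Dp16 kidneys, and all 3 groups overlapped. The ratio of H2-Ab1 to Cd74 was 0.405, 0.432 and 0.439 in Dp16, 0.398, 0.422 and 0.438 in Dp16 2xIFNRs and 0.440, 0.462 and 0.517 in wild-type kidneys. Here neither duplication group overlapped with wild-type. The log2 fold changes over wild-type were 0.59 for Cd74 and 0.46 for H2-Ab1 in Dp16, and 0.53 and 0.38 in Dp16 2xIFNRs. Whether the folds of both genes differ was not tested. The margin between the ratios was narrow, with 0.4390 as the highest Dp16 value and 0.4404 as the lowest wild-type value. The ratio of H2-Eb1 to H2-Ab1 was 0.627, 0.681 and 0.700 in Dp16, 0.638, 0.665 and 0.713 in Dp16 2xIFNRs and 0.562, 0.612 and 0.638 in wild-type kidneys. By the median, both beta chains were closer to each other in the duplication groups. The Dp16 range overlapped with wild-type, and the lowest Dp16 2xIFNRs value (0.6383) lay next to the highest wild-type value (0.6381).

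**Figure D3:**
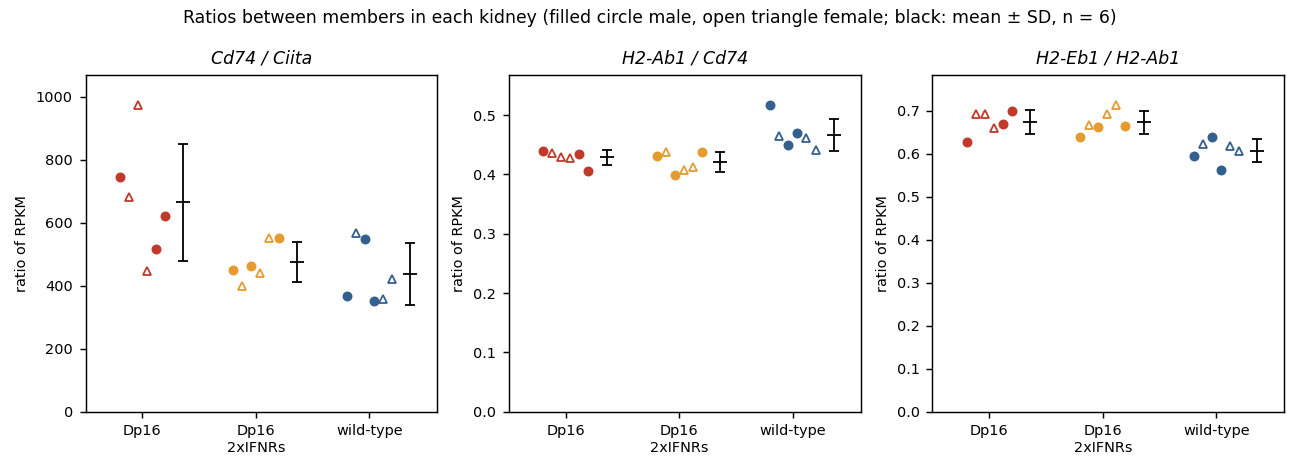
Ratios of RPKM values within each kidney (vertical axes) for Cd74 to Ciita, H2-Ab1 to Cd74 and H2-Eb1 to H2-Ab1, with circles for males, triangles for females and black marks for the mean with SD of the Dp16, Dp16 2xIFNRs and wild-type groups (n = 6 each). The ratio of H2-Ab1 to Cd74 is at most 0.439 in the duplication groups and at least 0.440 in wild-type kidneys.

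Sex was balanced over the groups and was a term of the fit behind each test above. Between 9 males and 9 females, 1 of the 10 genes was called, H2-DMb1, which was lower in males (20.5 ± 3.16 CPM in males and 25.6 ± 4.37 CPM in females, SD, n = 9 each). Its log2 fold change of male over female was -0.32 ± 0.07 (edgeR adjusted p = 0.00156). Of all tested genes 19.7% were called lower and 19% higher in males. With the sample number as a block, 5 of the 10 were called, and 5508 genes in all.

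Whether a genotype difference depended on sex was asked with an interaction term, and 0 of the 10 genes were called in any of the 3 comparisons, against 0.0171%, 0.00569% and 0% of all tested genes. The largest estimate was that of H2-DMb2. It averaged 1.59 ± 0.101 CPM in Dp16 males, 3.00 ± 0.992 CPM in Dp16 2xIFNRs males and 2.50 ± 0.290 CPM in wild-type males (SD, n = 3 each). In females it averaged 3.29 ± 1.28 CPM in Dp16, 1.87 ± 0.347 CPM in Dp16 2xIFNRs and 2.03 ± 0.447 CPM in wild-type kidneys. The interaction was 1.73 ± 0.39 on the log2 scale for Dp16 2xIFNRs over Dp16 (male minus female, unadjusted p = 0.000348, adjusted p = 0.953 in edgeR) and -1.34 ± 0.39 for Dp16 over wild-type (unadjusted p = 0.00312, adjusted p = 0.493).

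Of the transcription factors known to act on class II genes, few passed the test. In a list of 13, which holds the RFX subunits, the NF-Y subunits, Creb1, Usf1, Spi1 and interferon regulatory factors, 0 were called in Dp16 and 1 in Dp16 2xIFNRs over wild-type. The called gene was Spi1, which encodes the myeloid factor PU.1, at a log2 fold change of 0.50 ± 0.14 (edgeR adjusted p = 0.0424), and its value in Dp16 was 0.47 ± 0.14 (adjusted p = 0.0650). The list's median log2 fold change was 0.03 in both Dp16 and Dp16 2xIFNRs over wild-type. Of 6 tested genes of interferon gamma signalling, 1 was called higher in Dp16 (Ifngr2, log2 fold change 0.76 ± 0.07, edgeR adjusted p = 2.84e-06) and 0 in Dp16 2xIFNRs. Ifng itself had 0 to 15 counts a library and was not tested.

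Among 10 genes that process the invariant chain and antigen, 1 was called higher in Dp16 and 2 in Dp16 2xIFNRs over wild-type. Both included Ctss, cathepsin S, the protease that removes the invariant chain in antigen-presenting cells. Ctss had 35.3, 37.4 and 52.1 CPM (lowest, median, highest) in Dp16, 31.4, 38.7 and 47.5 CPM in Dp16 2xIFNRs and 19.1, 21.6 and 30.9 CPM in wild-type kidneys, with no overlap with wild-type in either. Its log2 fold change was 0.79 ± 0.13 in Dp16 (edgeR adjusted p = 0.00118) and 0.78 ± 0.13 in Dp16 2xIFNRs (adjusted p = 0.00139). The second gene in Dp16 2xIFNRs was Ctsd, cathepsin D, at 0.20 ± 0.06 (edgeR adjusted p = 0.0467), with 0.18 ± 0.06 in Dp16 (adjusted p = 0.0850).

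On the receptor side, Cd4, the coreceptor that binds class II and is also found on some myeloid cells, was the 1 called gene of 6 tested genes of costimulation and class II receptors. Its log2 fold change was 1.12 ± 0.21 in Dp16 (edgeR adjusted p = 0.00430) and 1.08 ± 0.21 in Dp16 2xIFNRs (adjusted p = 0.00526) over wild-type. Cd44, which signals together with Cd74 when the cytokine Mif binds, was the 1 called of 4 tested genes of that group, at 0.56 ± 0.15 in Dp16 (edgeR adjusted p = 0.0435) and 0.59 ± 0.15 in Dp16 2xIFNRs (adjusted p = 0.0308). Of 3 genes of class II surface turnover 0 were called. H2-Eb2, a further beta chain gene, had 0 to 21 counts a library and was not called. In Dp16 2xIFNRs over Dp16, Ifngr2 was the 1 gene called among all these lists.

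Genes next to the class II genes in the MHC did not reach the threshold. Inside the interval from H2-Oa to H2-Eb1, 6 other genes were tested, among them the class I processing genes Tap1, Tap2, Psmb8 and Psmb9. In edgeR's test 0 of the 6 were called in any of the 3 genotype comparisons, at a median log2 fold change of 0.24 in Dp16 and 0.26 in Dp16 2xIFNRs over wild-type. The 8 class II genes there had medians of 0.45 and 0.41 in the same comparisons. Tap1 came closest, at a log2 fold change of 0.37 in Dp16 over wild-type (edgeR adjusted p = 0.0516). Psmb8 had 0.40 (edgeR adjusted p = 0.0601) and Psmb9 0.34 (0.190), near the 0.36 of H2-DMb1, which was called. Tap2 had 0.13, and Brd2 and Gm15821 had -0.10 each. Of all tested genes 3.17% were called higher in this comparison, and 0 of 6 cannot be told apart from that share.

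Many macrophage markers were higher in the same groups. In a list of 14 macrophage markers, 9 were called higher in Dp16 and 10 in Dp16 2xIFNRs over wild-type, and 0 were lower. This list, like the other marker lists, was chosen with earlier results of these data known. The summed level of the list ran from 343 to 399.8 CPM in Dp16 and from 337 to 417 CPM in Dp16 2xIFNRs, above the 238 to 322 CPM of wild-type kidneys, and 0 of the 14 were at 0. Lyz2, the lysozyme of myeloid cells, had a log2 fold change of 1.11 ± 0.13 in Dp16 (edgeR adjusted p = 5.16e-05) and 1.02 ± 0.13 in Dp16 2xIFNRs (adjusted p = 0.000131). Ms4a7, a membrane protein of macrophages, had 1.18 ± 0.19 in both (edgeR adjusted p = 0.00118 and 0.00132). The marker of highest level, Csf1r, the receptor for a macrophage growth factor, was not called, at -0.03 ± 0.09 in Dp16 (edgeR adjusted p = 0.907) and 0.08 ± 0.09 in Dp16 2xIFNRs (adjusted p = 0.693). Nor was the next, Mertk, a receptor for the uptake of dying cells, named after its values were seen, at -0.18 ± 0.08 (adjusted p = 0.254) in Dp16 and -0.06 ± 0.08 (adjusted p = 0.777) in Dp16 2xIFNRs. The part of these markers in the class II differences was not tested.

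Of 5 general leukocyte markers 4 were called higher in each, with Ptprc (CD45) at a log2 fold change of 0.73 ± 0.09 in Dp16 (edgeR adjusted p = 8.50e-05) and 0.77 ± 0.09 in Dp16 2xIFNRs (adjusted p = 5.05e-05). Dendritic cell markers, 9 in all, gave 0 calls in Dp16 and 3 in Dp16 2xIFNRs (Clec9a, Itgax and Flt3). In Dp16 the log2 fold changes of these 3 were 0.59 (edgeR adjusted p = 0.0690), 0.48 (0.158) and 0.84 (0.0518), and the list's median was 0.48 in Dp16 and 0.32 in Dp16 2xIFNRs. Their summed level was 18.7 to 27.5 CPM in Dp16, 18.0 to 25.4 CPM in Dp16 2xIFNRs and 15.4 to 21.7 CPM in wild-type kidneys. B cell markers gave 0 calls of 8 tested in either comparison and summed to 4.20 to 12.3 CPM in Dp16, 4.37 to 6.96 CPM in Dp16 2xIFNRs and 2.78 to 8.50 CPM in wild-type kidneys. Of 8 T cell markers, 3 were called higher in Dp16 (Trac, Cd3e and Cd3g) and 1 in Dp16 2xIFNRs (Trac), at list medians of 0.89 and 0.49 on the log2 scale. They summed to 7.67 to 15.4 CPM in Dp16, 8.03 to 9.98 CPM in Dp16 2xIFNRs and 4.11 to 7.69 CPM in wild-type kidneys. Of 4 fat markers 1 was called, the adipocyte hormone Adipoq, at 0.60 ± 0.16 in Dp16 (edgeR adjusted p = 0.0439) and 0.25 ± 0.16 in Dp16 2xIFNRs (adjusted p = 0.461, not called). The fat list summed to 146 to 238 CPM in Dp16, 99.8 to 191 CPM in Dp16 2xIFNRs and 105 to 153 CPM in wild-type kidneys. Of 6 endothelium markers 0 were called in either. Between Dp16 2xIFNRs and Dp16, 0 markers of these lists were called in edgeR's test.

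**Figure D4:**
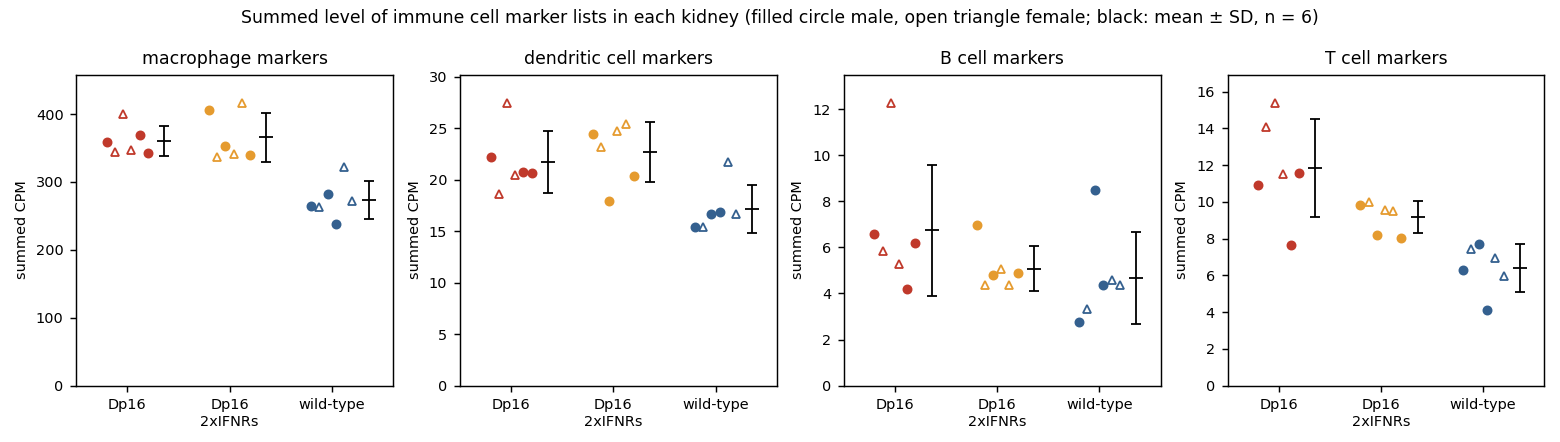
Summed CPM of the macrophage, dendritic cell, B cell and T cell marker lists (vertical axes, starting at 0) in each kidney of the Dp16, Dp16 2xIFNRs and wild-type groups, with circles for males, triangles for females and black marks for the mean with SD (n = 6 each). Macrophage sums of both duplication groups are at least 337 CPM and those of wild-type kidneys at most 322 CPM, while dendritic and B cell sums overlap.

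Within groups, levels of the classical chains and Cd74 varied together from animal to animal. After the mean of each genotype and sex was taken out, log2 CPM of H2-Aa and H2-Eb1 correlated at r = 0.978 over the 18 libraries. Among pairs of the classical chains and Cd74 this r was the highest, and that of H2-Aa with Cd74 (0.917) was the lowest. They are given as a description since these genes share each library's depth and cell content. All r values here and below include Dp16 replicate 3, which stood far above its group in these genes, and no r without it is given. Against the mean of H2-Aa, H2-Ab1, H2-Eb1 and Cd74, H2-DMa followed most closely of the other members (r = 0.916), then H2-DMb1 (0.709), H2-Oa (0.660), H2-DMb2 (0.502) and H2-Ob (0.496). Ciita followed least (r = 0.213). H2-Oa, H2-DMb2, H2-Ob and Ciita were also the 4 members with the fewest CPM.

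Outside the 10 genes, 13844 genes whose log2 CPM averaged 0 or more were compared with the same mean, and their median r was -0.04. The most alike over the 18 libraries was C1qb (r = 0.969), a chain of complement C1q made by tissue macrophages, with C1qa (0.924) and C1qc (0.898) also among the first 10. The classical class I genes H2-K1 (0.928) and H2-D1 (0.925) and the protease Ctss (0.923) came next to it. The other 4 were Parl (0.906), Pld4 (0.894), Fcer1g (0.889) and Rras (0.886). Among these 10, all but Parl and Rras were called higher in Dp16 over wild-type in edgeR's test. In Dp16 2xIFNRs over wild-type all but H2-K1, H2-D1, Parl and Rras were called higher. Of all tested genes 3.17% were called higher in each comparison. C1qb had a log2 fold change of 0.57 in Dp16 (edgeR adjusted p = 0.00363) and 0.54 in Dp16 2xIFNRs (adjusted p = 0.00467) over wild-type. H2-D1 had 0.34 (adjusted p = 0.0168) and 0.25 (adjusted p = 0.0776), and Parl, a mitochondrial protease, had 0.03 (adjusted p = 0.903) and -0.03 (adjusted p = 0.852) in the same comparisons.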

How the data were processed

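Per the labels' protocols, TRIzol-extracted polyA RNA went into strand-specific Tecan/NuGEN libraries, read in pairs on an Illumina NovaSeq. The submitters' processing notes name the build GRCm38 and, among tools, HTSeq 0.6.1, HISAT2 2.1.0, SAMtools 1.5, FastQC 0.11.5 and bcl2fastq. The authors deposited raw counts per gene and, for the same genes, RPKM values. How the RPKM were made, and the strand setting of the counting, is not given in the sources used here. CPM served within genes and RPKM between genes.

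All 18 libraries were fitted once in edgeR 4.0.16 (R 4.3.3) with group and sex, TMM scaling and a by-group filter (minimum count 10, minimum total 15), and p values were adjusted by Benjamini-Hochberg over 17575 genes at 0.05. SE is the log2 fold change divided by the root of its F statistic, and intervals are approximate. Alternatives used limma 3.58.1 (RPKM pseudocount 0.1) and DESeq2 1.42.0, among others. The steps were tested on simulated counts. No pair of libraries within a group was a duplicate, and pairs across groups were not checked. Positions came from GENCODE M21.

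The 10 genes and all lists were chosen with earlier results of these data known. Named genes were the 10, up to 3 called genes of smallest p per list and comparison (with none called, the highest gene), and the 10 most alike by Pearson r of log2 CPM (prior count 2). A gene of the transcription factor list is not reported here and was left out of its count and median, and calls within the kidney epithelium list are not reported either. The neighbours in the MHC and the ratios were added after values were seen. The labels number the samples within each group and give sex and age. The tests weigh each difference against the spread left between these samples after group and sex. A further number at the end of the descriptions, whose meaning is not given in the sources used here, is shared by 11 of the 18 samples (5 numbers, each within 1 sex and across groups). H2-Oa, H2-Ob, H2-DMb2 and Ciita had the fewest counts of the 10 genes and the widest spread within groups. The part of counting depth in that spread was not tested.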

Additional observations from a re-analysis of the deposited data

Results flagged for a closer look

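Dp16 replicate 3, a female, stood far above the other 5 Dp16 kidneys in 5 of the 10 genes. It had 226 CPM of H2-Aa against 167 CPM in the next Dp16 kidney, 262 against 205 CPM of H2-Ab1, 249 against 191 CPM of H2-Eb1, 23.1 against 17.8 CPM of H2-DMa and 712 against 559 CPM of Cd74. In each, the gap to the next animal was 0.696 to 0.874 of the range of the group, above Dixon's 95% critical value for 6 samples. In all, 30 sets of gene and group were examined, about 1 in 20 of which chance alone would pick out, and the genes are not independent of each other. The same kidney had the highest sums of the Dp16 group in macrophage (399.8 CPM), B cell (12.3 CPM), T cell (15.4 CPM), dendritic cell (27.5 CPM), leukocyte (133 CPM) and endothelium markers (689 CPM). It was also highest in fat markers (238 CPM, next 179 CPM) and lowest in kidney epithelium markers (13685 CPM). The part of these markers in the class II levels was not tested. Without it, the log2 fold change of Dp16 over wild-type was 0.49 for H2-Aa (edgeR adjusted p = 0.0141), 0.39 for H2-Ab1 (0.0252), 0.53 for H2-Eb1 (0.00547) and 0.51 for Cd74 (0.00426), and that of H2-DMa was 0.37 (0.0876, not called).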

How the results depend on the processing

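The 10 genes' 6 calls in Dp16 over wild-type numbered 4 to 6 with each library left out and 4 to 7 under the other settings. The 5 calls in Dp16 2xIFNRs over wild-type numbered 4 to 5 with each library left out and 3 without the sex covariate. Between Dp16 2xIFNRs and Dp16, 0 were called in every setting. The 1 call between males and females became 5 with the replicate block (5508 genes over all, against 6813) and 3 with limma-trend on log2 RPKM (7811). The sample numbers that the titles repeat in each group did not pair them (correlations of deviations -0.17 to 0.20), and the replicate block left the 6, 5 and 0 calls between genotypes as they were. So did limma-voom with the shared number of the descriptions as a random block (correlation 0.0778). Of the genes' log2 fold changes under all settings, 23 lost a call, 9 gained one and 0 called ones changed sign. The H2-DMa and H2-DMb1 calls in Dp16 were also lost in the fit of 2 groups alone (adjusted p = 0.0582 and 0.0619) and without the sex covariate (0.0860 and 0.230), where the H2-Ab1 (0.0790) and H2-DMb1 (0.178) calls in Dp16 2xIFNRs were lost as well. The cause was not tested.

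Over all genes, the 744 calls in Dp16 over wild-type became 190 without the sex covariate, 1235 in DESeq2, 453 with 2 groups alone, 478 without wild-type replicate 4, 462 without Dp16 replicate 1 and 429 without Dp16 replicate 3. The 841 calls in Dp16 2xIFNRs over wild-type became 234 without the sex covariate, 1287 in DESeq2, 526 without wild-type replicate 1 and 552 without Dp16 2xIFNRs replicate 1. Interaction calls over all genes (3, 1 and 0) ranged from 0 to 61. The levels of H2-Oa, H2-Ob and H2-DMb2, at a few CPM, limit what their folds can show.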
